A study of Mus musculus with 3 samples.

Results

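The genes described here encode the proteasome, the protease that degrades proteins marked with ubiquitin. Members were all protein-coding genes whose GENCODE symbol starts with Psma, Psmb, Psmc, Psmd, Psme, Psmf or Psmg followed by a digit, which gave 50 of the 50600 genes counted and of the 21764 protein-coding genes. Another 4 symbols of this form belong to pseudogenes, each with 0 counts in every library, and were left out. RNA was sequenced from primary cells of the mouse strain C57BL/6NJ that carry the label T-helper 1, a kind of CD4 T cell known to secrete interferon gamma. They form 1 group of 3 libraries labelled biological replicates 1, 2 and 3. The labels give the replicates separate biosamples but a single donor identifier, link a protocol for differentiating CD4 T cells, and record sex as not collected and age as unknown. The header of each table carried a time of 0 hours. No other condition was analysed here, so comparisons were made between genes within a library and between the libraries.

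The proteasome consists of a barrel-shaped core, the 20S particle, with outer rings of alpha subunits and inner rings of beta subunits, of which a few cut proteins. A 19S cap recognises ubiquitinated proteins, unfolds them and feeds them into the core, and the 11S caps and Psme4 open the core without using ubiquitin. Interferon gamma is known to raise the immunoproteasome subunits Psmb8, Psmb9 and Psmb10, which take the places of Psmb5, Psmb6 and Psmb7 in newly built cores and favour peptides that fit MHC class I molecules. Lymphocytes are known to carry immunoproteasomes without any stimulus. By role, the 50 members divide into 7 alpha subunits, 7 constitutive beta subunits, 3 immunoproteasome subunits and 2 tissue-restricted core subunits. The cap genes comprise 9 subunits of the 19S base, 8 of the 19S lid and 4 activators. A further 7 genes encode assembly chaperones and 3 fall outside these roles.

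Total counts were 3647366 in replicate 1, 4305077 in replicate 2 and 2510319 in replicate 3. Levels are given in TPM, transcripts scaled for gene length and library depth and computed from the counts and the deposited exon length. P-values refer to these libraries alone. Those of the Poisson test between libraries measure departure from counting error. Those of the sign-flip test of ratios cannot fall below 0.25, whatever the spread between libraries. Counting was restricted to 1 strand, and the orientation of the library kit was not given in the sources used here. If the kit has the other orientation, a gene's counts come from fragments of the opposite strand, which matters where exons of different genes overlap across strands. Such overlap held for 12 of the 50 members (24%) and for 22.1% of protein-coding genes. Genes with it took 63.1%, 53.8% and 76.5% of all counts in replicates 1, 2 and 3. All 7 T cell markers examined reached 1 TPM in each library. Of the T-helper 1 markers, Tbx21 and Ifng each had 1, 3 and 0 counts and Cxcr3 had 0 in every library, so the transcription factor and the cytokine that define the labelled cell type were at or near 0. The other 2 markers of that list reached 1 TPM in each library, Stat4 with 16.7, 20.8 and 6.91 TPM and Il12rb2, whose exons overlap the other strand, with 13.02, 11.97 and 17.99. Of 5 B cell markers 1 (Cd79a) and of 5 myeloid markers 2 (Csf1r, whose exons overlap the other strand, and Cd74) reached 1 TPM in each library, and both erythroid markers had 0 counts. The part of other cells in the members' levels was not tested. The libraries are therefore called by their label alone.

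Transcripts of nearly every proteasome gene were present. Of the 50 members 47 (94%) reached 1 TPM in each of the 3 libraries, against 9043 of 21764 protein-coding genes (41.5%). The median level of a member was 27.0 TPM in replicate 1, 40.0 in replicate 2 and 14.1 in replicate 3. Over all protein-coding genes the medians were 0.629, 0.681 and 0.216 TPM, and over the 10938 of them that reached 1 TPM in any library they were 10.2, 14.7 and 5.28 TPM. The members' median was above both in every library, and replicate 3 gave the lowest median of each set. The 50 genes together took 0.241%, 0.307% and 0.187% of all counts in replicates 1, 2 and 3. Counted over protein-coding genes without exon overlap only, the members' share was 0.383%, 0.411% and 0.376%, closer between the libraries. The order of the members was alike between libraries, with a Spearman rho of 0.984 for replicates 1 and 2, 0.939 for 1 and 3 and 0.952 for 2 and 3 over the 48 members with at least 3 counts in each. These values describe the libraries and share the genes' lengths, so they carry no test.

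**Figure D1:**
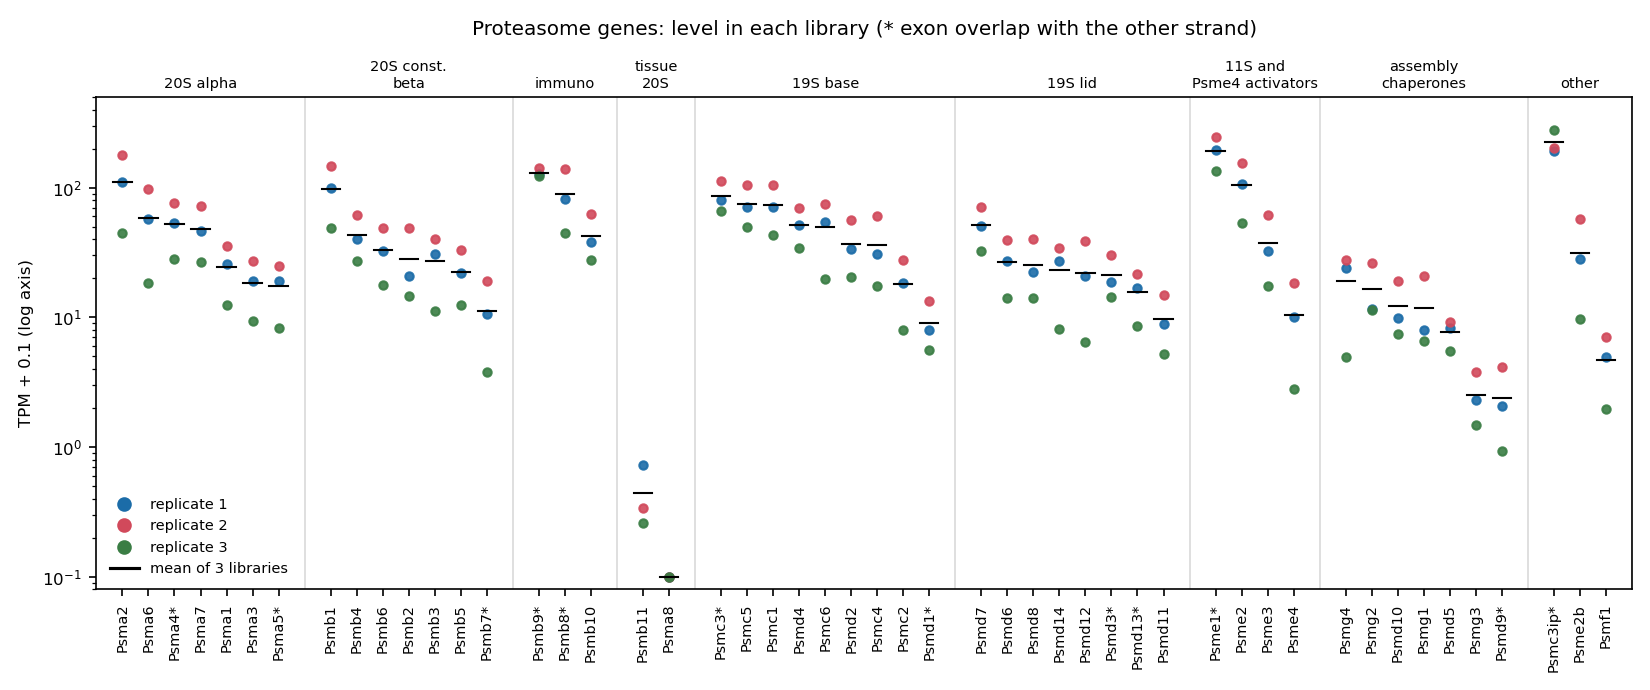
Level of each of the 50 members in each library, as TPM + 0.1 on a log axis, grouped by role and ordered by mean. Points are libraries, bars are means of 3 libraries and asterisks mark the 12 members whose exons overlap exons of the other strand. Most members lie between 10 and 100 TPM, the tissue-restricted core subunits Psma8 and Psmb11 lie at the bottom, and replicate 2 is the highest of the libraries for most members.

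The 7 alpha subunits form the outer rings of the core and its gate. Their median of mean TPM was 47.9, and they spanned a 6.44-fold range from Psma5 (17.2 ± 8.43 TPM, SD, n = 3) to Psma2 (111 ± 66.6). Psma2 measured 111, 178 and 44.7 TPM in replicates 1, 2 and 3, the fourth highest member. Psma6 measured 57.3, 98.02 and 18.4 TPM. For both genes replicate 2 was the highest library and replicate 3 the lowest, as for every alpha subunit on this scale. The exon length that the deposited table gives for Psma2 is 944 bases, while its coding transcripts have a median of 2911 bases in a later annotation, and with transcript lengths the highest alpha subunit was Psma7 in place of Psma2. All 7 nevertheless stayed within a 7.75-fold range on those lengths. Psma5 has near-identical copies, Gm8394 (98.6% identity over 952 bases) and Gm12989 (97.5% over 734), both with 0 counts in every library. The counting may not separate such copies, so the level of Psma5 is uncertain.

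The constitutive beta subunits form the inner rings, and only Psmb5, Psmb6 and Psmb7 among them cut peptide bonds. Their median of mean TPM was 28.0, from Psmb7 (11.02 ± 7.55) to Psmb1 (97.7 ± 48.9), an 8.87-fold range. Psmb4, a subunit without catalytic activity, measured 40.3, 61.2 and 27.1 TPM in replicates 1, 2 and 3. On the log2(TPM + 0.1) scale the median beta subunit lay below the median alpha subunit by a difference of -0.50 ± 0.13 (SD, n = 3), with the same sign in 3 of 3 libraries. With the lengths of coding transcripts this difference shrank to -0.074. On those lengths the lowest constitutive beta subunit was Psmb5 in place of Psmb7 and the highest Psmb3 in place of Psmb1, a 3.155-fold range.

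The catalytic subunits were each measured well above their floor. Psmb5, which carries the chymotrypsin-like activity and lies at chromosome 14, 54614120 to 54617995 (mm10), measured 21.96, 32.8 and 12.3 TPM in replicates 1, 2 and 3. Psmb6, with the caspase-like activity, at chromosome 11, 70525367 to 70527858, measured 32.6, 48.8 and 17.5 TPM. Psmb7, with the trypsin-like activity, at chromosome 2, 38588036 to 38644087, measured 10.6, 18.8 and 3.72 TPM. On the deposited lengths Psmb7 was the lowest of these genes in every library, while by mean on coding transcript lengths Psmb5 was the lowest. In TPM on the deposited lengths each of them was highest in replicate 2 and lowest in replicate 3.

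The immunoproteasome subunits were higher. Psmb8, the partner that replaces Psmb5, at chromosome 17, 34197721 to 34201454, measured 81.7, 140 and 44.5 TPM in replicates 1, 2 and 3. Psmb9, which replaces Psmb6, at chromosome 17, 34181988 to 34187764, measured 126, 142 and 123 TPM. Psmb10, which replaces Psmb7, at chromosome 8, 105935735 to 105938444, measured 37.7, 62.3 and 27.5 TPM. Every library of each immunoproteasome subunit lay above the same library of the subunit it replaces. Nor did the TPM of a pair on the deposited lengths overlap across libraries. The lowest library of each replacing subunit was above the highest of its replaced partner. For Psmb10 and Psmb7 these were 27.5 and 18.8 TPM, but the mean fold of that pair fell from 4.39 to 1.95 with coding transcript lengths. Whether the values stay apart on those lengths was not examined. Psmb9 varied least in TPM, and its value in replicate 3 was near that in replicate 1.

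Within each library the ratio of replacing to replaced subunit was compared on the log2(TPM + 0.1) scale. For Psmb8 to Psmb5 it was 1.89, 2.08 and 1.85 in replicates 1, 2 and 3, a mean of 1.94 ± 0.13 (SD). The Psmb9 to Psmb6 ratio was 1.95, 1.54 and 2.80, a mean of 2.10 ± 0.64. For Psmb10 to Psmb7 it was 1.83, 1.72 and 2.85, a mean of 2.13 ± 0.62. The means were alike and the replicates of Psmb8 to Psmb5 were the closest together, while replicate 3 stood above the others for the remaining pairs. As shares of the pair's summed TPM, Psmb8 held 79.4% ± 1.39, Psmb9 80.5% ± 6.58 and Psmb10 81.0% ± 6.17 (SD, n = 3). From counts summed over the libraries, the per-base ratio was 3.98 for Psmb8 to Psmb5 (1351 and 108 counts), with an exact Clopper-Pearson 95% interval of 3.27 to 4.89. It was 3.82 (3.41 to 4.29) for Psmb9 to Psmb6 and 3.76 (3.17 to 4.46) for Psmb10 to Psmb7, intervals that cover counting error only. Each ratio was above 0 on the log2 scale in 3 of 3 libraries, and the two-sided exact sign-flip test gave p = 0.25 for each, also 0.25 after Benjamini-Hochberg adjustment over 5 pairs, the smallest value that 3 libraries allow.

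**Figure D2:**
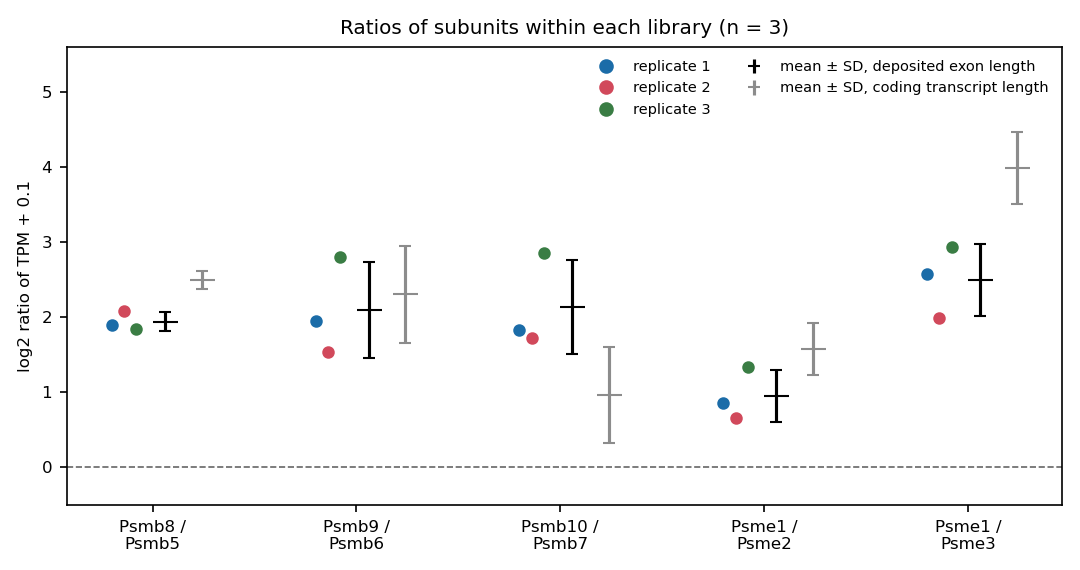
Log2 ratio of TPM + 0.1 between the subunits of 5 pairs within each library. Coloured points are the 3 libraries, black bars are mean ± SD with the deposited exon length, and grey bars are mean ± SD with the median length of coding transcripts. All points lie above 0, and the Psmb10 to Psmb7 mean moves from 2.13 to 0.97 with the other length.

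The size of these ratios rests on gene length and on which genes are kept. With the lengths of coding transcripts the means became 2.50 for Psmb8 to Psmb5, 2.31 for Psmb9 to Psmb6 and 0.97 for Psmb10 to Psmb7. The median immunoproteasome subunit lay 1.94 ± 0.13 above the median constitutive catalytic subunit on the log2 scale. Among members without exon overlap only Psmb10 was left to set against Psmb5 and Psmb6, and the difference was 0.68. The exons of Psmb8 share 186 bases with Gm20496 on the other strand, and those of Psmb9 share 212 bases with Tap1. Psmb7 shares 405 bases with Nek6, so each of the 3 pairs has a member with such an overlap. Psmb5 also has a near-identical copy, the pseudogene Gm3375 (98.9% identity over 796 bases, 0 counts in every library). The counting may not separate such copies, so the counts of Psmb5 and the Psmb8 to Psmb5 ratio are uncertain beyond the interval given.

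Sequences are shown around the RefSeq start sites of the activator Psme1, the replacing subunits Psmb8 and Psmb9 and the replaced subunit Psmb5. In the deposited annotation Psme1, Psmb8 and Psmb9 start further upstream, so their stretches lie wholly inside the genes as counted. Those of Psmb6, Psmb7 and Psmb10 are not shown. Interferon gamma is known to act on promoters through the interferon-stimulated response element and the gamma-activated site. The loss of proteasome activity is known to act through the antioxidant response element. The stretches run from 250 bases before the RefSeq start site to 20 bases from the start site on (GRCm38.p6), on the strand of the gene. Capitals in Psme1, Psmb8 and Psmb5 mark a motif match on either strand, and in Psmb9 the 225 bases between its RefSeq start site and that of Tap1. The deposited annotation has no such gap, since there the exons of Psmb9 and Tap1 overlap.
Psme1 (chr14:55578244-55578513, plus strand): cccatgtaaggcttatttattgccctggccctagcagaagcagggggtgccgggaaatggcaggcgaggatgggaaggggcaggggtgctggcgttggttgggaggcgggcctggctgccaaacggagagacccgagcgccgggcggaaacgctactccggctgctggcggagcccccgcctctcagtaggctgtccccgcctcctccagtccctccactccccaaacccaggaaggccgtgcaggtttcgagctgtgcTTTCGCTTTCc
Psmb8 (chr17:34197945-34198214, plus strand): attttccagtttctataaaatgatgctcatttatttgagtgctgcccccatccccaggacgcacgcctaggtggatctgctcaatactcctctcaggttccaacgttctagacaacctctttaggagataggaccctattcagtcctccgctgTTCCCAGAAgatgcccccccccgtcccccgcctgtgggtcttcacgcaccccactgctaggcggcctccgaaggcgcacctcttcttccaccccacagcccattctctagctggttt
Psmb5 (chr14:54617976-54618245, minus strand): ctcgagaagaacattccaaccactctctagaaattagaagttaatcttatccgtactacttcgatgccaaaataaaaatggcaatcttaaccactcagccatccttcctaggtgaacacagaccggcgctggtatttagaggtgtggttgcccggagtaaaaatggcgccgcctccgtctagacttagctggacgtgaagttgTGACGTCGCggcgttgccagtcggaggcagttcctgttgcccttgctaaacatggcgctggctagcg
Psmb9 (chr17:34187311-34187580, minus strand): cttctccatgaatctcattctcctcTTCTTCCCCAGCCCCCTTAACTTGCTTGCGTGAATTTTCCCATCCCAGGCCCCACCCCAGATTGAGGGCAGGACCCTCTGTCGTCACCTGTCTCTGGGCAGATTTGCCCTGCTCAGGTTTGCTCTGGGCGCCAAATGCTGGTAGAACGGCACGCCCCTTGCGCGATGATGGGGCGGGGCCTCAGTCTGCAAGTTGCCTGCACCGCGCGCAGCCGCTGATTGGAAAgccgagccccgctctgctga
Psme1 holds a match to the interferon-stimulated response element, searched on both strands as GAAA, any 2 bases and GAAA, on the reverse strand from 9 bases after its start site. Psmb8 holds a match to the gamma-activated site, searched as TTCNNNGAA, 97 bases before its start site. Psmb5 holds a match to the core of the antioxidant response element, searched as TGACNNNGC, 47 bases before its start site. The 300-base windows of Psmb9 and Tap1, which are transcribed away from each other, share 275 bases, so any match there belongs to both genes.

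Windows of 300 bases (250 before the start site and 50 from it on) were found for 42 of the 50 members, 45 windows in all. The members without a window were Psma8, Psmb1, Psmb2, Psmb7, Psmc3, Psmd3, Psmd7 and Psmg2. Matches to the interferon-stimulated response element were in 5 of the 45 (11.1%), those of Psmb3, Psmd4, Psmd9, Psme1 and Psmg4, against 3.44% of 32851 windows of all genes. TTCNNNGAA was in 3 (6.67%), those of Psmb8, Psmd2 and Psmg1, against 8.30%. TGACNNNGC was in 6 (13.3%), those of Psmb5, Psmb6, Psmc6, Psmd12, Psmd9 and Psme4, against 12.4%. None of the searched letters was in the windows of Psmb9 or Psmb10. These matches are descriptions of letters, and no binding was measured.

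The base of the 19S cap holds the 6 ATPases Psmc1 to Psmc6, which unfold the substrate, with the scaffolds Psmd1 and Psmd2 and the ubiquitin receptor Psmd4. Its median of mean TPM was 49.7, from Psmd1 (8.92 ± 4.01) to Psmc3 (86.5 ± 24.3), a 9.70-fold range. Psmc1 measured 71.0, 105 and 43.2 TPM in replicates 1, 2 and 3. Psmc5 measured 71.3, 105 and 49.4 TPM, close to Psmc1 in each library. Psmd4 measured 51.1, 69.1 and 33.8 TPM. These ATPases and the receptor had the same order of libraries, replicate 2 above 1 above 3. The ATPases were not equal, since Psmc2 had a mean of 17.8 ± 9.83 TPM and Psmc4 of 36.1 ± 21.9.

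The lid carries the deubiquitinase Psmd14, which removes ubiquitin before degradation, its partner Psmd7 and 6 scaffold subunits. Its median of mean TPM was 22.5, from Psmd11 (9.58 ± 4.92) to Psmd7 (51.2 ± 19.1), a 5.35-fold range. Psmd7 measured 50.5, 70.7 and 32.6 TPM in replicates 1, 2 and 3. Psmd12 measured 20.9, 38.5 and 6.32 TPM, and Psmd14 27.1, 34.4 and 8.07. Psmd7 stood above both in every library. The median lid subunit lay below the median base subunit by a difference of -1.02 ± 0.20 on the log2 scale, in 3 of 3 libraries, and by -0.38 with the lengths of coding transcripts. Psmd11 has near-identical copies, Gm14048 (97.95% identity over 1269 bases) and A730017L22Rik (97.9% over 1501), which had 137, 156 and 136 and 44, 49 and 15 counts in replicates 1, 2 and 3, so its level is uncertain.

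The core and cap medians were not far apart. The median alpha subunit lay above the median of all 17 cap subunits by 0.66 ± 0.26 on the log2(TPM + 0.1) scale, in 3 of 3 libraries. Without correction for length, on log2 CPM, the difference was -0.14, so its direction rests on the per-length scale.

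The activators were the most uneven group, with an 18.4-fold range between Psme1 and Psme4. Psme1 and Psme2 ranked 2 and 5 of the 50 members by mean TPM, and Psme3 and Psme4 ranked 19 and 42. Psme1, at chromosome 14, 55578123 to 55581529, measured 195, 245 and 134 TPM in replicates 1, 2 and 3. Psme2, its partner in the 11S ring that interferon gamma is known to raise, at chromosome 14, 55587441 to 55591113, measured 107, 155 and 53.1 TPM. Psme3, the subunit of a nuclear 11S ring, at chromosome 11, 101316213 to 101323537, measured 32.6, 61.6 and 17.5 TPM. Psme1 and Psme2 were above Psme3 in every library. Psme4, a large single-chain activator, at chromosome 11, 30771726 to 30880361, measured 10.01, 18.4 and 2.71 TPM and was the lowest activator in every library.

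The Psme1 to Psme2 ratio on the log2(TPM + 0.1) scale was 0.86, 0.66 and 1.33 in replicates 1, 2 and 3, a mean of 0.95 ± 0.35. Summed over libraries it was 1.79 per base (1.66 to 1.93, exact Clopper-Pearson 95% interval). For Psme1 to Psme3 it was 2.57, 1.99 and 2.93, a mean of 2.50 ± 0.48, or 5.02 per base (4.59 to 5.50). Both pairs had the same direction in 3 of 3 libraries, with the exact sign-flip p at its smallest possible value of 0.25. The lengths of coding transcripts raised the means to 1.58 and 3.99. The exons of Psme1 overlap those of Emc9 by 14 bases. The activators' median lay above that of the alpha subunits by 0.51 ± 0.19 on the log2 scale, but the difference was -0.26, in the other direction, among members without exon overlap, which leaves out Psme1. Psme2 also has a near-identical copy, Psme2b, at 99.4% identity over 794 bases. Psme2b, at chromosome 11, 48945354 to 48946190, measured 27.9, 56.7 and 9.59 TPM, with the same order of libraries as Psme2. The counts of Psme2 and Psme2b are uncertain, since the counting may not separate such copies.

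The assembly chaperones, which build the particle and are not part of the finished form, were lower. Psmg1 to Psmg4 help to form the alpha ring, and Psmd5, Psmd9 and Psmd10 help to form the base. The median of their mean TPM was 11.8, from Psmd9 to Psmg4 (18.8 ± 12.2). On the log2 scale their median lay below that of the alpha subunits by a difference of -2.05 ± 0.38, in 3 of 3 libraries. Psmd9 measured 1.98, 4.01 and 0.831 TPM in replicates 1, 2 and 3. Psmg3 measured 2.20, 3.70 and 1.39 TPM from 12, 21 and 6 counts. These were the lowest members outside the tissue-restricted core subunits, and replicate 3 of Psmd9 fell short of 1 TPM.

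Among the remaining members, Psmf1, a proteasome inhibitor that binds the core, measured 4.87, 6.97 and 1.87 TPM in replicates 1, 2 and 3. Psma8, the alpha subunit of the testis form, had 0 counts in every library, where 3 counts would have been 0.941, 0.904 and 1.19 TPM. Psmb11, the beta subunit of thymic cortical epithelium, had 5, 2 and 1 counts, or 0.625, 0.240 and 0.158 TPM, where 3 counts would be 0.375, 0.361 and 0.473 TPM. The tissue-restricted subunits were thus at or near the floor. Psmc3ip matches the symbol rule because it is named after its binding to Psmc3, and it acts in meiotic recombination rather than as a proteasome subunit. Psmc3ip, at chromosome 11, 101091823 to 101095436, measured 191, 200 and 277 TPM in replicates 1, 2 and 3. It was the highest member by mean TPM, and the only member with more counts in replicate 3 than in replicate 2 (655, 714 and 752 counts).

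The counts of the features on the other strand are given beside those of the members they overlap. Psmc3ip shares 385 exonic bases with Mlx, which had 143, 211 and 48 counts in replicates 1, 2 and 3. Psmb9 had 869, 1020 and 671 counts beside 593, 899 and 292 for Tap1, the peptide transporter gene that starts next to it. Mlx and Tap1 counts were thus lower in replicate 3 than in replicate 2 by a larger factor than those of the member they overlap. The opposite held for the 9 other overlapping features with counts. Gm20496, of 663 bases and 186 of them shared with Psmb8, had 7218, 6881 and 8094 counts, which per base was 70.8, 38.0 and 184 times the density of Psmb8. Nek6, next to Psmb7, had 1698, 1435 and 1695 counts, while Psmb7 had 68, 126 and 19. In all, 4 of the 11 features with counts (Gm12356, AY074887, Nek6 and Gm20496) were denser per base than their member in every library. From replicate 2 to replicate 3 the counts of the 11 features had a median log2 ratio of 0.23, against -1.93 for the 36 members without exon overlap and with at least 3 counts in each library. Whether fragments of 1 strand were counted for a gene of the other was not tested.

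**Figure D3:**
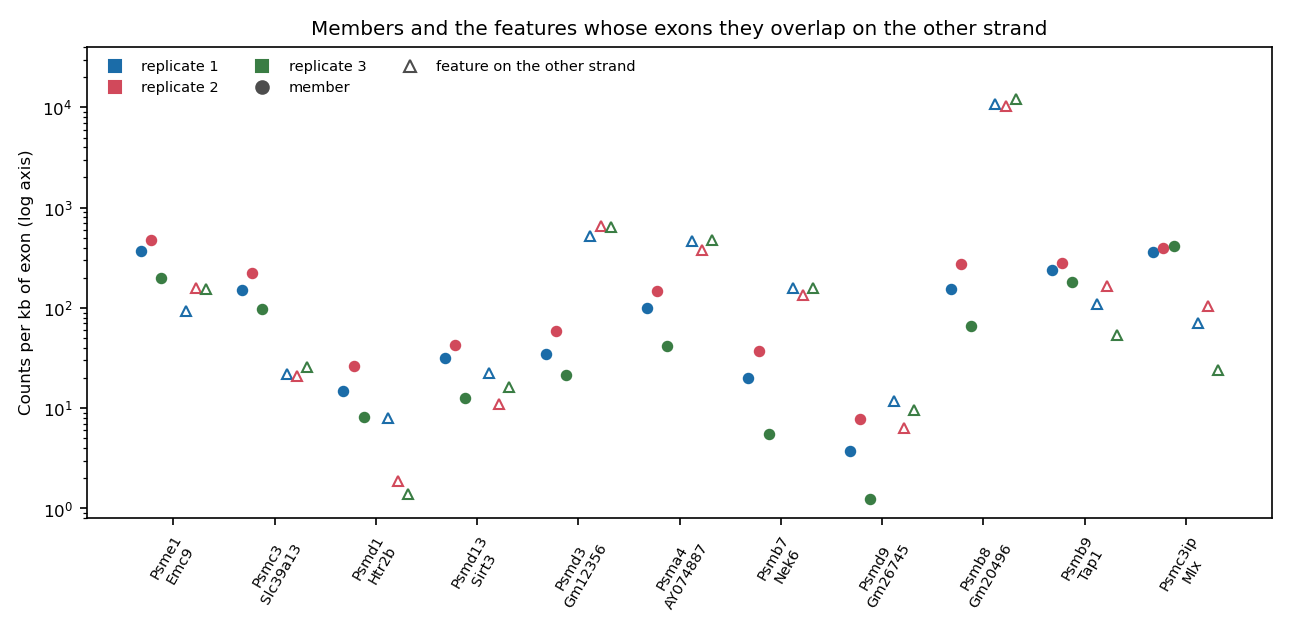
Counts per kb of exon (log axis) for 11 members (filled circles) and the feature on the other strand whose exons overlap them (open triangles), with colours for the 3 libraries. Psma5 is not shown because its partner had 0 counts. Replicate 3 (green) is the lowest library for every member but Psmc3ip, whereas it is the lowest for only 3 of the 11 features, Htr2b, Tap1 and Mlx.

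Variation between the libraries was then examined gene by gene, on counts scaled to effective library size with TMM factors (trimmed mean of M-values), which correct for differences in composition. Of 46 members tested, 22 (47.8%) differed between the 3 libraries beyond counting error in a Poisson chi-square test at a Benjamini-Hochberg adjusted p of 0.05, against 62.4% of the 10662 genes tested and 51.9% of the 5737 protein-coding genes without exon overlap. A range above 1 on the log2(CPM + 0.5) scale held for 8 members (17.4%), against 39.5% of all genes tested and 23.8% of protein-coding genes without exon overlap. On this scaling the members' shares were below those of all genes tested. The share that passed was near that of protein-coding genes without exon overlap. On total counts the members' shares were above those of all genes tested, at 45 and 29 of 46 against 82.5% and 55.2%. With no filter on low counts 24 of 49 passed the test against 42.6%. The 4 members not tested, for low counts, were Psmg3, Psmg4, Psmb11 and Psma8. The call rests on counting error alone. With a negative binomial spread at the common dispersion of 0.140, 0 members passed (smallest adjusted p = 0.0895, 1 at an unadjusted p below 0.05) and 4.31% of all genes tested did. That dispersion was estimated from the same genes and libraries, so it includes the spread under test and limits how many genes can pass.

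By role, 4 of 4 activators, 5 of 9 base subunits, 3 of 8 lid subunits, 3 of 7 constitutive beta subunits and 2 of 7 alpha subunits passed the Poisson test, against 62.4% of all genes tested. No role was tested against that share. Passing also depends on a gene's counts. Psme1 passed with a log2 range of 0.285 and 2310 counts, while Psmd9 did not pass with 1.04 and 93. Of the immunoproteasome subunits Psmb8 and Psmb9 passed and Psmb10 did not. Among the 5 tested chaperones 1 passed, which was Psmg1. Members with and without exon overlap passed in 6 of 12 and 16 of 34 cases.

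The 5 members with the largest range were Psmc3ip, Psme4, Psmd12, Psme2b and Psma6. Psmc3ip measured 170, 131 and 402 CPM in replicates 1, 2 and 3, a log2 range of 1.62 (adjusted p = 1.07e-119, Poisson chi-square test). It was far above the others in replicate 3. Psme4 measured 40.9, 55.3 and 18.2 CPM, a range of 1.58 (adjusted p = 7.48e-10), and Psmd12 26.9, 36.6 and 13.4, a range of 1.42 (adjusted p = 4.71e-06). Psme2b measured 11.4, 17.0 and 6.42 CPM, a range of 1.34 (adjusted p = 0.00266), and Psma6 34.4, 43.4 and 18.2, a range of 1.23 (adjusted p = 1.15e-05). These 4 were lowest in replicate 3 and highest in replicate 2, the reverse of Psmc3ip. Psmb9 took the course of Psmc3ip at a smaller size, with 225, 187 and 359 CPM and a range of 0.94 (adjusted p = 5.16e-39).

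On TMM values the smallest ranges were those of Psmd7, Psmc1, Psmd4, Psmb4 and Psmc5. Psmd7 measured 55.7, 57.3 and 58.8 CPM in replicates 1, 2 and 3, a log2 range of 0.079. Psmc1 measured 52.6, 57.0 and 52.4 CPM and Psmd4 69.9, 69.6 and 76.0. Neither passed the Poisson test. Psmb4 measured 38.3, 42.9 and 42.3 CPM and Psmc5 48.4, 52.6 and 55.1, with ranges of 0.16 and 0.18. With TMM taken over protein-coding genes without exon overlap the smallest ranges were those of Psme2, Psma3, Psmd6, Psmb1 and Psmb6 instead, at 0.048 to 0.067. Psmd4 and Psmc5 then differed between libraries (ranges of 0.50 and 0.44, adjusted p = 0.00443 and 0.0365, Poisson chi-square test), so which members varied least depends on the scaling.

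The direction of the shift between libraries depended on the scaling. On TMM values, 37 of 46 members were lower in replicate 3 than in replicate 2, with a median difference of -0.35 on the log2 scale, against -0.41 for protein-coding genes without exon overlap. On total counts 44 were lower (median -1.11, against -1.15), and with DESeq2 size factors 34 (median -0.25, against -0.31). With TMM taken over protein-coding genes without exon overlap, 22 were lower and 24 higher, and the median was 0.019 against -0.039. Of protein-coding genes without exon overlap, 74.73%, 91.15%, 70.04% and 52.92% were lower in replicate 3 under these scalings, in the order named. A change of scaling shifts every gene by nearly the same amount, so the difference between the 2 medians stayed at 0.046 to 0.058. Genes with exon overlap had a median of 1.00 on TMM values, and those genes took the largest share of counts in replicate 3.

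Psmc3ip and Psmb9 were higher in replicate 3 than in replicate 2 under all 4 scalings of CPM, by 0.85 to 1.99 and by 0.17 to 1.31 on the log2 scale. In TPM, which divide by the summed density of all genes in a library, Psmb9 was 142 in replicate 2 and 123 in replicate 3, so its direction depends on this choice too. Psme4, Psmd12, Psme2b and Psma6 were lower under the scaling to protein-coding genes without exon overlap too, where their differences were -1.21, -1.05, -0.99 and -0.86 (adjusted p = 1.13e-05, 0.00204, 0.0480 and 0.00649, Poisson chi-square test). Under that scaling 15 of 46 members passed, against 53.1% of all genes tested and 36.3% of protein-coding genes without exon overlap. A range above 1 held for 4 members, against 37.7% and 17.5%. Psme1 and Psmc3 were 0.29 and 0.37 higher in replicate 3 on TMM values, but lower on total counts, by differences of -0.48 and -0.39.

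**Figure D4:**
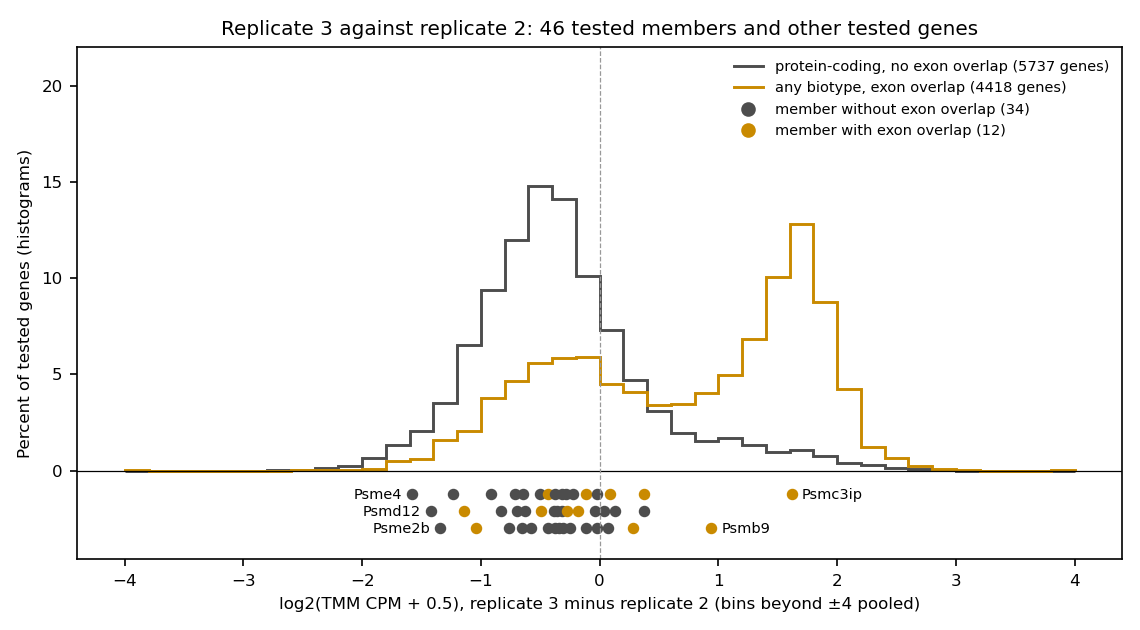
Difference between replicates 3 and 2 in log2(TMM CPM + 0.5). Histograms show the percent of 5737 protein-coding genes without exon overlap (grey) and of 4418 genes with exon overlap (orange), and points below the axis show the 46 tested members in the same colours at arbitrary heights. The grey histogram peaks below 0 and holds most members. The orange one has its highest peak above 1, where Psmc3ip lies, and a lower one near 0.

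Genes that work with the proteasome were described from fixed lists. Of 20 associated genes 19 were found, all at 1 TPM or more in each library, with a median of mean TPM of 14.8. On the log2 scale their median lay below that of the 19S subunits by a difference of -0.88 ± 0.12, in 3 of 3 libraries. Nfe2l2, a stress-response transcription factor, measured 34.8 ± 7.98 TPM and Ubqln1, a shuttle for ubiquitinated proteins, 28.6 ± 15.3, both above the median of the list. The lowest were the protease Ddi2, which activates the factor that induces proteasome genes, with 8.21 ± 4.49 TPM, the adaptor Ecpas with 8.23 ± 5.71 and the deubiquitinase Usp14 with 8.32 ± 3.61. Their SDs overlap, so no order among these 3 was resolved. Between libraries 12 of the 19 passed the Poisson test, against the background of 62.4% over all genes.

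The 6 ubiquitin genes had a median of mean TPM of 31.6. Ubb, which encodes ubiquitin repeats, measured 165 ± 72.9 TPM, and Uba1, the main activating enzyme, 48.2 ± 26.0. Of the 13 genes of MHC class I presentation, the route that immunoproteasome peptides feed, all reached 1 TPM in each library, with a median of mean TPM of 86.6. B2m, the light chain of class I molecules, measured 1948 ± 1117 TPM, Tap1 59.0 ± 24.1 and Tap2, its partner in the peptide transporter, 53.9 ± 27.2. The class I median was close to the 88.6 TPM of the 3 immunoproteasome subunits, and both lists were above the 22.4 TPM of the constitutive catalytic subunits. In the test between libraries 3 of the 6 ubiquitin genes and 11 of the 13 class I genes passed, against 62.4% of all genes tested. Such shares depend on the genes' counts as well as on their variation. All 7 T cell markers passed too and were lower in replicate 3 than in replicate 2 on TMM values. So were 74.73% of protein-coding genes without exon overlap.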

How the data were processed

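Total RNA from 1 group of 3 libraries was counted per gene by the authors with featureCounts 1.4.6-p4 on GENCODE M13, and the deposited values are raw counts of paired fragments with strand setting 1, per the file headers. Alignments named for STAR were used, per the file headers, on mm10, per the labels. Library kit and read trimming are not given in the sources used here. Fragments that map to several places were not requested in the counting command, so near-identical copies may be undercounted.

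Symbols and biotypes came from GENCODE M21, which named 50376 of 50600 identifiers. TPM were computed here from the counts and the deposited lengths. CPM were scaled with TMM factors (edgeR 4.0.16 in R 4.3.3) or, as an alternative, with size factors from DESeq2 1.42.0. The Poisson chi-square test (2 degrees of freedom) covered the 10662 genes kept by filterByExpr. It was tried on simulated counts with counting error alone, which cannot show its error rate under the wider spread of these libraries. Exon overlaps came from bedtools 2.31.1, copies (at least 95% identity over 300 bases) from BLAST 2.17.0 and exact intervals and correlations from scipy 1.17.1. The sign-flip test went through every combination of signs. Promoter sequences are RefSeq's. The precision is limited by 2510319 to 4305077 counts in a library. Intervals and floors (3 counts) cover counting error only, as PCR duplicates were not told apart.

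Library values are given for catalytic, activator, highest, lowest, most and least variable members and those under 3 counts. Members, lists and tests were chosen with earlier results of these data known. Alternatives were other scalings, filters, pseudocounts, member sets and leaving out each replicate. The scaling to protein-coding genes without exon overlap and the lengths of coding transcripts were added after seeing the data. The listed gene Paaf1 was not analysed here. A result for 1 of the listed genes is not reported here.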

Additional observations from a re-analysis of the deposited data

How the results depend on the processing

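Of 102 alternative values, 2 reversed and 20 moved. Differences of medians were held to the spread between libraries and counts to a factor of 1.5. The values of the 5 pairs were judged by direction alone, which all kept, so they are among the other 80 whatever their size. On CPM without length correction Psmb8 to Psmb5 became 3.58, Psmb9 to Psmb6 became 3.06 and Psmb10 to Psmb7 became 1.14. With coding transcript lengths Psmb8 to Psmb5 became 2.50 and Psmb10 to Psmb7 became 0.97. Psme1 to Psme2 and Psme1 to Psme3 became 1.58 and 3.99 with those lengths. The pairs' test cannot pass its threshold with 3 libraries, so it says nothing of stability. The count of members that differed between libraries (22 of 46) became 45 on total counts (82.51% of all genes tested) and 0 with a negative binomial spread (4.305%). It was 11 to 18 when each replicate was left out, with 18 of 46 without replicate 1 (60.76% of all genes), 12 of 46 without replicate 2 (49.67%) and 11 of 48 without replicate 3 (28.1%). The count with a range above 1 (8) became 29 on total counts (55.16% of all genes) and 4 with TMM over protein-coding genes without exon overlap (37.68%). It was 0 to 6 when each replicate was left out, with 6 of 46 without replicate 1 (36.26%), 4 of 46 without replicate 2 (20.79%) and 0 of 48 without replicate 3 (4.381%). On CPM without length correction the differences of medians became -0.14 for alpha minus 19S (reversed), -0.72 for lid minus base, 2.81 for immunoproteasome minus catalytic, 0.89 for activators minus alpha and -0.28 for associated minus 19S. Among members without exon overlap they became 0.34 for alpha minus 19S, 0.68 for immunoproteasome minus catalytic, -0.26 for activators minus alpha (reversed) and -1.25 for associated minus 19S. With coding transcript lengths they became 0.26 for alpha minus 19S, -0.074 for beta minus alpha, -0.38 for lid minus base, 2.21 for immunoproteasome minus catalytic and -1.10 for associated minus 19S. The cause was not tested. No paired analysis was possible because the series has 1 group. At this depth 4 members had too few counts to be tested.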

Other observations

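Searching the longest coding transcript of each of the 50 members against the annotated transcripts found near-identical copies (at least 95% identity over 300 bases) for 10 members, 16 copies in all, of which 8 had counts. Psma3 has a processed pseudogene, Gm13835, with 100% identity over 665 bases, which had 6, 3 and 0 counts in replicates 1, 2 and 3. Gm3375, a pseudogene of Psmb5 with 98.9% identity over 796 bases, had 0 counts in every library. Of all copies Gm14048, a copy of Psmd11, was the only one with over 100 counts in each library apart from Psme2. Its counts (137, 156 and 136) were level between replicates 2 and 3 where those of Psmd11 were 186 and 49. No rule for a closer look was applied to the members, since groups of 3 libraries are too small for the test of outlying samples.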
